A study of Mus musculus with 4 samples.

Results

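The 10 genes described here are support genes of Müller glia, the radial glia that span the retina: Glul, Slc1a3, Kcnj10, Aqp4, Car14, Abca8a, Apoe, Clu, Crym and Spc25. They were taken as a list of names, found in full among the 20094 genes of the data. The list was chosen with earlier results of these data known, so its counts beside the share of all genes are description only. The genes were followed in Müller glia across 4 single-cell RNA-seq libraries with the sequencing depth of the cells matched. Müller glia clear the glutamate that photoreceptors and neurons release, convert it to glutamine, carry potassium and water from the neuropil towards the vitreous and the vessels, buffer pH and supply lipoproteins. After photoreceptor damage they turn reactive, a state in which their intermediate filament gene Gfap is known to go up and glutamine synthetase to go down.

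All mice were 6 weeks old and lacked Abca4 and Rdh8 (Abca4-/-Rdh8-/- on C57BL/6J), the transporter and the dehydrogenase that remove all-trans-retinal, so the unbleached controls carry the same deletions and no group is wild type. Each library pooled 4 retinae from 2 mice. Before bleaching, mice spent 24 h in darkness and had their pupils dilated with 1% tropicamide, and white light of 10000 lux then lasted 30 min, with collection 1 day later. Rolipram, which inhibits phosphodiesterase type 4, and BC11-38, which inhibits type 11, were injected intraperitoneally in DMSO at 2 mg/kg each, 30 min before light, in a group each. The bleached vehicle group received DMSO and light, and the unbleached vehicle group DMSO without bleaching. The labels do not record dark adaptation or pupil dilation for the unbleached group. A further group named in the series text was not analysed here. Since each group is 1 library, groups cannot be tested against each other, and every interval below is an exact 95% interval for counting error only, which leaves out the variation between mice and between libraries. The intervals of ratios also leave out the variation between cells, so they are narrower than sampling of cells would make them.

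Müller glia were the clusters with most Müller markers, among them Rlbp1, Sox9 and Vim, none of which is one of the 10 genes, and all 12 markers were detected in each library. They numbered 1190 of 7894 cells in the rolipram library, 594 of 6143 in the BC11-38 library, 1384 of 6809 in the bleached vehicle library and 587 of 5697 in the unbleached vehicle library. Library depth was 28983626 to 44386442 UMIs (unique molecular identifiers, each standing for 1 captured transcript), and library pairs shared 10 to 25 cell barcodes. The median Müller cell held 5545.5 UMIs with rolipram, 6762 with BC11-38, 13686 in bleached vehicle and 11509 in unbleached vehicle. Rod bipolar cells of the same libraries had medians of 4517, 5595, 6868 and 7347 UMIs, a narrower spread. Each Müller cell was therefore thinned at random to 3000 UMIs, which kept 1032, 548, 1231 and 519 cells in the same order and left out 158, 46, 153 and 68 shallower ones. A level below is the mean number of UMIs of a gene in such a cell, that is, its share of the cell's captured transcripts. These are tags from the 3′ end of transcripts, and levels are compared between libraries, not between genes. Levels after thinning still varied with the UMIs a cell held before it. For Glul the Spearman rho was -0.11 with rolipram, 0.13 with BC11-38, -0.20 in bleached vehicle and -0.41 in unbleached vehicle. For Crym it was 0.22, 0.06, 0.24 and 0.47 in the same order. The part of this in the ratios was not tested.

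Sex make-up, which the labels do not give, differed between the libraries. Xist was seen in 50.2% of rolipram, 51.7% of BC11-38, 0.289% of bleached vehicle and 43.4% of unbleached Müller glia. Each ratio to or from the bleached vehicle library thus sets a library almost without Xist cells against one with many. Below, Y-linked cells are Müller glia with a UMI of a Y-linked gene and none of Xist, Xist cells are those with the reverse, and the values within either kind are given beside the results they touch.

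The clearest difference among the 10 genes lay in Glul, glutamine synthetase, which turns glutamate and ammonia into glutamine. Glul had 28.2 UMIs per cell with rolipram, 33.3 with BC11-38, 4.48 in bleached vehicle and 14.9 in unbleached vehicle Müller glia. It was lowest in the bleached vehicle library, and both drug libraries lay above the unbleached library. Spc25, a subunit of the NDC80 kinetochore complex that links chromosomes to spindle microtubules, had the same order of libraries at 9.90, 11.1, 1.62 and 4.98 UMIs per cell. Crym, which encodes the cytosolic thyroid hormone binding protein µ-crystallin, had the opposite order at 2.48, 1.74, 8.49 and 5.51.

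The regions directly before the starts of 4 of these genes are shown because Glul and Spc25 had the widest range over the libraries and Kcnj10 and Slc1a3 among the narrowest. Each is the 250 bases before the RefSeq start on the gene's own strand in GRCm38.p6, from chr1:153899679-153899928 (plus strand) for Glul, chr2:69206214-69206463 (minus) for Spc25, chr1:172340960-172341209 (plus) for Kcnj10 and chr15:8710808-8711057 (minus) for Slc1a3. Capitals mark TTGGC, part of the nuclear factor I site, AGAACA, part of the glucocorticoid receptor site, and TGACG, part of the cAMP response element, each on either strand.
Glul: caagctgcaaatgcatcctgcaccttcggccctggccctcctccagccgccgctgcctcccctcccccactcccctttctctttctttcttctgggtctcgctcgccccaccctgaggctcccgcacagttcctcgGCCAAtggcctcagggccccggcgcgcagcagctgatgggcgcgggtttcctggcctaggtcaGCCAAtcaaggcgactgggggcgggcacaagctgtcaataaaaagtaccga
Spc25: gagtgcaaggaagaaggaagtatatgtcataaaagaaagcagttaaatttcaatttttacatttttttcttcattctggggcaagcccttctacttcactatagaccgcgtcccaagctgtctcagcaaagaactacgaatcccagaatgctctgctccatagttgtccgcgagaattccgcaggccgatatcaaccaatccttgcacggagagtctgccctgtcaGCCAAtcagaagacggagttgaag
Kcnj10: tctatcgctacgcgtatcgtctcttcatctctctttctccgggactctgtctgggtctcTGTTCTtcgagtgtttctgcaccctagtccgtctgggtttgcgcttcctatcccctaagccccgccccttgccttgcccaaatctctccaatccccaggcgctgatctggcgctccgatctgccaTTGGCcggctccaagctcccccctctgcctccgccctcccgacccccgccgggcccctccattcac
Slc1a3: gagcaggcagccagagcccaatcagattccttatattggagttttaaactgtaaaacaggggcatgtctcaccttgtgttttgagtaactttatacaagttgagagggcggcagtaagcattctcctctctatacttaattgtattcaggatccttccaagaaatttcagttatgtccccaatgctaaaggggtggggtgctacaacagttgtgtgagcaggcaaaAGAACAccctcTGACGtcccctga

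Windows of this length were found for 7 of the 10 genes, and those of Aqp4, Clu and Crym are not shown or counted. TTGGC was present in 6 of the 7, Slc1a3 being the exception, and in 41.5% of 32851 windows of all genes. AGAACA was present in 4 of the 7 (Slc1a3, Kcnj10, Car14 and Apoe) and in 16.1% of all windows, and TGACG in Slc1a3 alone and in 17.8% of all windows. The AP-1 site TGANTCA, the whole cAMP response element TGACGTCA, the whole glucocorticoid element and the whole nuclear factor I site had no match in the 7 windows. Of the other letters searched, TTCNNNGAA (STAT) was present in Slc1a3 and in 7.02% of all windows, and AGGTCA (part of nuclear receptor sites) in Glul and in 14.0%. The SOX letters ACAAAG were present in Apoe and in 16.5% of all windows, and ATTGT in Slc1a3, Abca8a and Apoe and in 27.7%. The motifs were searched on both strands, the short forms also lie within the whole sites, and these are matches of letters only.

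In mm10 (GENCODE M21) the protein-coding genes lie at chr1:153899944-153909723 (Glul), chr15:8634124-8710764 (Slc1a3), chr1:172341210-172374085 (Kcnj10), chr3:95897768-95904691 (Car14), chr11:110025634-110095978 (Abca8a), chr7:19696109-19699188 (Apoe), chr14:65968483-65981547 (Clu), chr7:120186380-120202111 (Crym) and chr2:69193895-69206194 (Spc25).

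Müller glia of the bleached vehicle library, set against the unbleached library, had at least 1.5-fold lower levels of 6 of the 10 genes (Glul, Spc25, Car14, Abca8a, Apoe and Aqp4) and a higher level of 1 (Crym). Of the 6650 genes with at least 100 UMIs over both libraries, 8.53% were lower and 9.02% higher by this measure, or 6.56% and 11.1% under TMM scaling, which centres the bulk of genes. At 2-fold, 3 of the 10 genes were lower and 0 higher, beside 1.37% and 2.32% of all. The median log2 ratio was -0.71 over the 10 genes and -0.01 over all genes counted. The ratios rest on 1 library a side.

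Glul was 3.32-fold lower in bleached vehicle than in unbleached Müller glia (95% interval 3.21 to 3.44). The share of cells with a Glul UMI was 75.4% (72.9 to 77.8%) in bleached vehicle and 93.8% (91.4 to 95.7%) in unbleached Müller glia, against 13.9% of 166 and 10.7% of 281 rods thinned alike, whose median depth before thinning was 3887 and 4101 UMIs. The median cell had 2 and 13 UMIs, and the tenth and ninetieth percentiles were 0 and 13 in bleached vehicle and 1 and 32.2 in unbleached cells, so the spread of single cells overlapped. Slc1a3, the glutamate transporter GLAST that carries glutamate into Müller glia, had 5.73 UMIs per cell with rolipram, 6.10 with BC11-38, 4.01 in bleached vehicle and 4.91 in unbleached vehicle. Its bleached level was 1.22-fold lower than the unbleached one (1.17 to 1.28), short of the 1.5-fold set for a difference. The uptake gene thus differed far less between these libraries than the gene of the enzyme that follows it.

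Kcnj10, the inward rectifier Kir4.1 through which Müller glia buffer potassium, had 0.885 UMIs per cell with rolipram, 0.859 with BC11-38, 0.617 in bleached vehicle and 0.846 in unbleached vehicle. The rolipram, BC11-38 and unbleached levels lay within counting error of each other, and the bleached vehicle level was 1.37-fold lower than the unbleached one (1.22 to 1.54). Aqp4, the water channel of the Müller endfeet, had 3.56, 3.34, 1.69 and 2.55 UMIs per cell in the same order. Its bleached vehicle level was 1.51-fold lower than the unbleached one (1.41 to 1.62), at the edge of the 1.5-fold set, and 1.30-fold lower (1.17 to 1.44) in Y-linked cells. Car14, a membrane-bound carbonic anhydrase that interconverts carbon dioxide and bicarbonate at the cell surface, had 2.92 with rolipram, 4.39 with BC11-38, 1.02 in bleached vehicle and 2.28 in unbleached vehicle. It was 2.24-fold lower after bleaching (2.07 to 2.43) and its level was highest with BC11-38.

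Abca8a, an ABC-type lipid transporter, had 2.99 UMIs per cell with rolipram, 3.37 with BC11-38, 1.12 in bleached vehicle and 2.24 in unbleached vehicle. Apoe, the lipoprotein through which glia hand lipids to neurons, had 34.7, 43.8, 16.4 and 29.2. Both had the library order of Glul, and after bleaching Abca8a was 1.99-fold lower (1.84 to 2.15) and Apoe 1.78-fold lower (1.74 to 1.82). Clu, the secreted chaperone and apolipoprotein clusterin, had 17.8 with rolipram, 13.6 with BC11-38, 14.7 in bleached vehicle and 21.8 in unbleached vehicle. The unbleached library was highest for Clu, unlike for Apoe, and the bleached vehicle level was 1.48-fold lower than the unbleached one (1.45 to 1.52), just short of 1.5-fold. Spc25 was 3.08-fold lower (2.90 to 3.26) and Crym 1.54-fold higher (1.48 to 1.61) in bleached vehicle than in unbleached Müller glia.

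**Figure D1:**
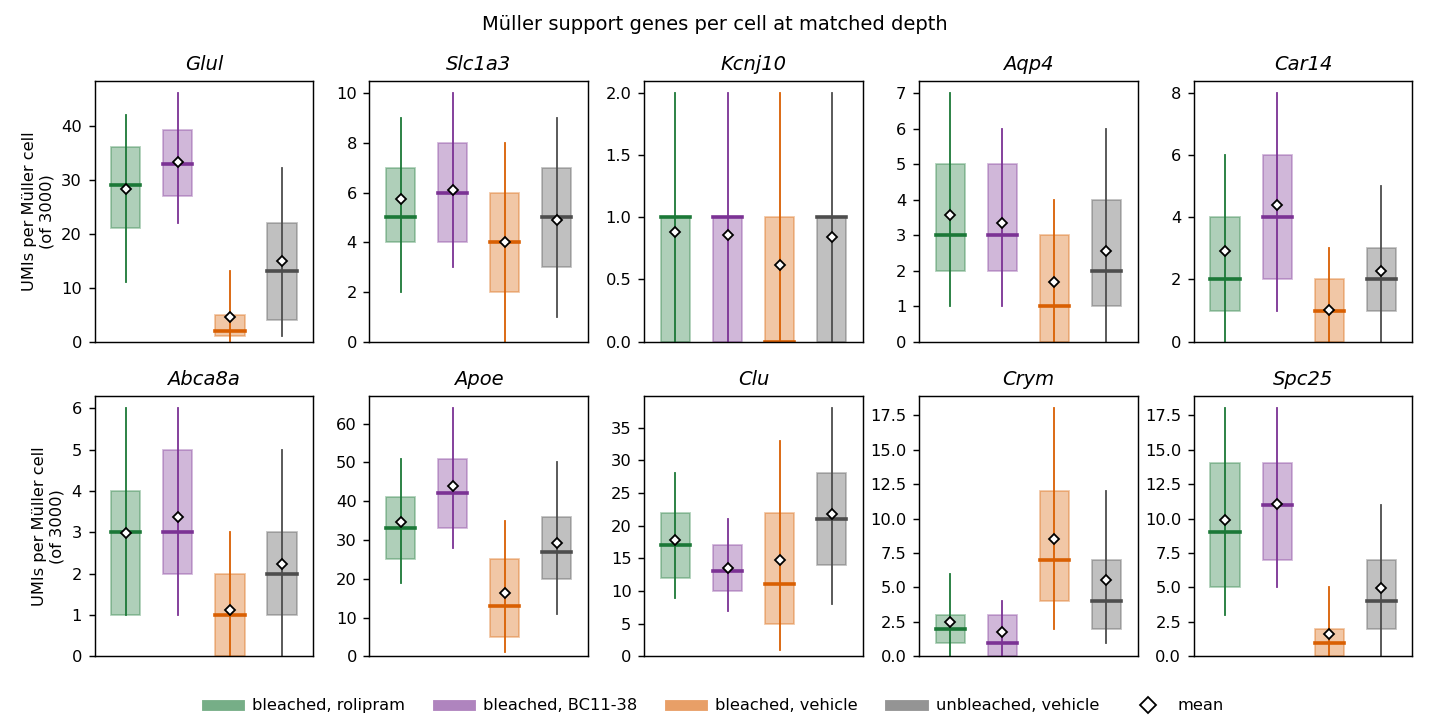
UMIs of each gene in single Müller glia thinned to 3000 UMIs, in the rolipram, BC11-38, bleached vehicle and unbleached vehicle libraries (1 library each; 1032, 548, 1231 and 519 cells). Boxes span the 25th to the 75th percentile of cells with the median as a bar, lines the tenth to the ninetieth percentile, and diamonds mark the mean; Glul means are 28.2, 33.3, 4.48 and 14.9.

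Sex make-up moved with this comparison. Within the unbleached library alone, Y-linked cells had 9.09 Glul UMIs each and Xist cells 22.9, a 2.52-fold lower level (2.39 to 2.66; 214 and 208 cells). Spc25 stood at 3.25 and 7.05 in these cells, Car14 at 1.91 and 3.03, Apoe at 25.03 and 35.5 and Crym at 7.46 and 3.25. The Y-linked cells of the unbleached library thus lay on the side of the bleached vehicle library in each of these genes, with a median of 16687 UMIs per cell against 10189.5 in the Xist cells. The split by sex followed the clusters described further on, with 76.7% of Y-linked and 28.5% of Xist cells in cluster 11 and 19.2% and 69.2% in cluster 12, and Gfap stood at 1.35 and 0.438 UMIs per cell. Slc1a3, Kcnj10 and Clu were within 1.13-fold between them. No such gap of Glul was seen in the BC11-38 library, with 33.5 UMIs in Y-linked and 33.4 in Xist cells, and in the rolipram library it stood at 26.9 and 29.8. Since each library pooled 2 mice, and since the labels give no sex, cells of different sex come from different animals, and differences between the sexes and between single mice cannot be told apart.

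Restricted to Y-linked cells (971 bleached vehicle and 214 unbleached cells), Glul was 2.07-fold lower after bleaching (1.97 to 2.19), Spc25 2.03-fold (1.86 to 2.22), Car14 1.81-fold, Abca8a 1.73-fold and Apoe 1.51-fold. Crym was 1.17-fold higher (1.11 to 1.24), no longer past 1.5-fold. The Glul gap between Y-linked and Xist cells of the unbleached library, 2.52-fold, was thus wider than the gap between libraries within Y-linked cells.

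**Figure D2:**
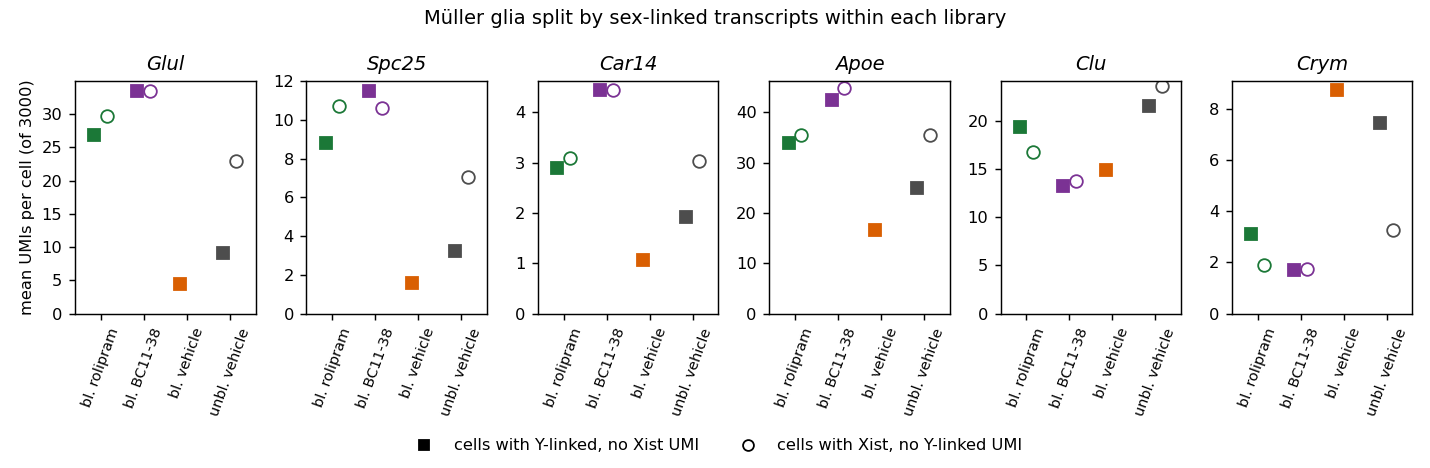
Mean UMIs per Müller cell thinned to 3000 UMIs for 6 genes, in Y-linked cells (filled squares) and Xist cells (open circles), by library. In the unbleached library the squares lie below the circles for Glul (9.09 and 22.9) and above for Crym (7.46 and 3.25); the bleached vehicle library has no circle because 1 cell fell in that group.

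With rolipram, 6 of the 10 genes were at least 1.5-fold higher than in bleached vehicle Müller glia and 1 was lower, where 21.9% of 7818 genes counted were higher and 12.7% lower. The median log2 ratio was 1.08 over the 10 genes and 0.13 over all genes counted. At 2-fold, 6 of the 10 genes were higher and 1 lower, beside 7.44% and 5.47% of all. Under TMM scaling, where the median of all genes is -0.04, 14.9% of all genes were higher and 18.5% lower, and the median of the 10 genes was 0.91. Glul was 6.29-fold higher (6.11 to 6.47), Spc25 6.11-fold (5.82 to 6.41), Car14 2.87-fold (2.69 to 3.07), Abca8a 2.66-fold (2.49 to 2.84), Apoe 2.12-fold (2.08 to 2.15) and Aqp4 2.11-fold (2.00 to 2.23). Crym was 3.42-fold lower (3.28 to 3.58). Slc1a3, Kcnj10 and Clu were 1.43-fold, 1.43-fold and 1.21-fold higher, short of the 1.5-fold set. In Y-linked cells the ratios changed little, with Glul 6.14-fold (5.92 to 6.37) and Spc25 5.51-fold (5.18 to 5.86) higher and Crym 2.79-fold lower (2.62 to 2.98).

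With BC11-38, 7 of the 10 genes were at least 1.5-fold higher than in bleached vehicle Müller glia and 1 was lower, where 23.7% of 6857 genes counted were higher and 16.2% lower. The median log2 ratio was 1.202 over the 10 genes and 0.12 over all genes counted, with 1.01 and -0.08 under TMM scaling, when 16.0% of all genes were higher and 23.1% lower. At 2-fold, 5 of the 10 genes were higher and 1 lower, beside 9.7% and 8.2% of all. Glul was 7.43-fold higher (7.21 to 7.66), Spc25 6.83-fold (6.49 to 7.19), Car14 4.32-fold (4.03 to 4.63), Abca8a 3.002-fold (2.80 to 3.22), Apoe 2.67-fold (2.62 to 2.72), Aqp4 1.98-fold (1.86 to 2.11) and Slc1a3 1.52-fold (1.45 to 1.59). Crym was 4.88-fold lower (4.57 to 5.22). Clu was 1.08-fold lower (1.06 to 1.11), and its direction turns with the settings tried. In Y-linked cells Glul was 7.65-fold (7.36 to 7.95) and Spc25 7.21-fold (6.76 to 7.69) higher, and Slc1a3 at 1.42-fold (1.33 to 1.51) was no longer past 1.5-fold. The drug comparisons share the bleached vehicle library, so they are not independent of each other.

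**Figure D3:**
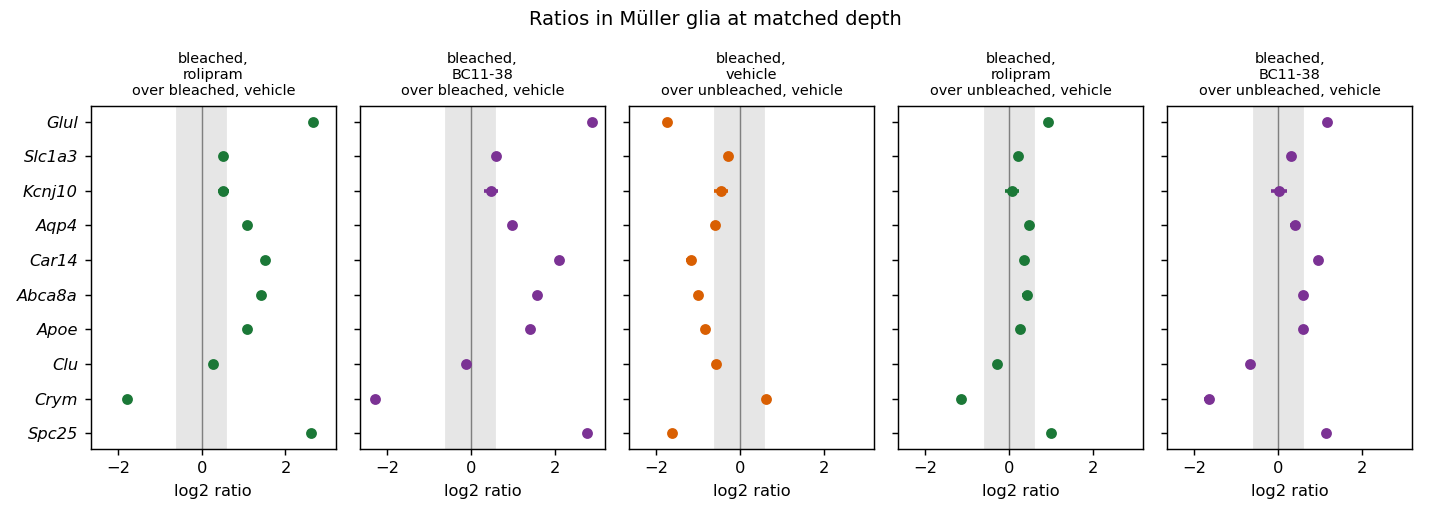
Log2 ratios of depth-matched levels of the 10 genes in 5 comparisons of libraries, with exact 95% intervals for counting error (mostly narrower than the points); grey bands mark less than 1.5-fold. Against bleached vehicle the Glul ratio is 2.65 with rolipram and 2.89 with BC11-38, and Crym lies on the opposite side of 0 from Glul in all 5 panels.

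Against the unbleached library, the drug-treated bleached retinae differed less. With rolipram, Glul was 1.89-fold (1.84 to 1.94) and Spc25 1.99-fold (1.90 to 2.07) higher and Crym 2.22-fold lower (2.11 to 2.34), and the other 7 genes were within 1.5-fold. Of 6462 genes counted 9.75% were higher and 4.47% lower (6.08% and 7.03% under TMM scaling), with a median log2 ratio of 0.30 over the 10 genes and 0.10 over all. At 2-fold, 0 of the 10 genes were higher and 1 lower, beside 1.49% and 0.82% of all. With BC11-38, 5 genes were higher, Glul 2.24-fold (2.18 to 2.30), Spc25 2.22-fold (2.12 to 2.33), Car14 1.93-fold (1.80 to 2.07), Abca8a 1.51-fold (1.40 to 1.62) and Apoe 1.503-fold (1.47 to 1.53). Crym at 3.17-fold (2.94 to 3.41) and Clu at 1.61-fold (1.56 to 1.65) were lower, beside 12.7% higher and 7.28% lower of 5039 genes counted (7.42% and 10.99% under TMM scaling) and medians of 0.49 and 0.12. At 2-fold, 2 of the 10 genes were higher and 1 lower, beside 2.36% and 2.58% of all. In Xist cells the Glul ratios to the unbleached library were smaller, 1.30-fold with rolipram (1.26 to 1.34) and 1.46-fold with BC11-38 (1.41 to 1.51), and in Y-linked cells larger, 2.96-fold (2.82 to 3.11) and 3.69-fold (3.51 to 3.88). Of the 5 genes higher with BC11-38, Spc25 alone stayed past 1.5-fold in Xist cells, at 1.503-fold (1.41 to 1.60), while Car14 was 1.47-fold (1.33 to 1.62), Abca8a 1.302-fold and Apoe 1.26-fold higher. The comparisons with the unbleached library share that library.

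Counted without depth matching, the number of transcripts per Müller cell gave another picture, because rolipram and BC11-38 Müller glia held fewer UMIs in all. Glul still had 52.1 UMIs per cell with rolipram and 75.5 with BC11-38 against 17.2 in bleached vehicle, with 51.8 in unbleached vehicle. Slc1a3 had 10.9, 13.4, 20.2 and 20.6, so its drug libraries were lower per cell and higher per 3000 UMIs. Apoe had 64.3, 96.3, 70.8 and 112.6 and Clu 34.5, 30.4, 62.2 and 86.6. Against bleached vehicle, 5 of the 10 genes turned direction with rolipram (Slc1a3, Kcnj10, Aqp4, Apoe and Clu) and 3 with BC11-38 (Slc1a3, Kcnj10 and Aqp4). Against unbleached vehicle, 6 turned with rolipram (Slc1a3, Kcnj10, Aqp4, Car14, Abca8a and Apoe) and 5 with BC11-38 (Slc1a3, Kcnj10, Aqp4, Abca8a and Apoe). None did between bleached vehicle and unbleached vehicle. Whether Müller glia held less RNA or less of it was captured cannot be told apart.

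Müller glia fell into 3 clusters, made without the 10 genes and the lists below, so that genes of the 10 named here as leading ones did not shape them. Cluster 11, deep and led by Cp, Crym and Cd9, held 17.7% of rolipram, 0.168% of BC11-38, 72.6% of bleached vehicle and 48.7% of unbleached Müller glia. Cluster 12, led by Spc25, Apoe and Rlbp1, held 73.2%, 92.3%, 4.48% and 34.4%. Cluster 13, shallow and led by S100a6 and Crym, held 9.08%, 7.58%, 22.9% and 16.9%. Most cells of the drug libraries thus lay in cluster 12 and most of the bleached vehicle library in cluster 11, while the unbleached library was divided between them. Levels of other leading genes may differ between libraries too, so these shares say where the cells lay and not that cell types changed in number.

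Within clusters 11 and 12 the library differences were smaller for most of the genes, and are given as description. In cluster 11 Glul had 15.2 UMIs per cell with rolipram, 4.38 in bleached vehicle and 8.70 in unbleached vehicle, 3.46-fold higher with rolipram than in bleached vehicle and 1.99-fold lower after bleaching. In cluster 12 it had 31.7 with rolipram, 33.5 with BC11-38, 16.9 in bleached vehicle and 25.3 in unbleached vehicle. The order of libraries for Glul thus held in cluster 12, and in cluster 11 without BC11-38, which had 1 cell there. The ranges were narrower than in all Müller glia, and Spc25 did the same with 10.7, 11.01, 4.50 and 7.49 in cluster 12. Aqp4 was nearly level in cluster 12 at 3.75, 3.38, 3.69 and 3.36. Clu there stood at 17.0 with rolipram, 13.7 with BC11-38, 29.7 in bleached vehicle and 24.3 in unbleached vehicle, so that bleached vehicle was the highest, the reverse of cluster 11, where it had 15.9 in bleached vehicle and 22.3 in unbleached vehicle. The bleached vehicle values of cluster 12 rest on 62 cells. In cluster 13 the ranges of Glul and Spc25 were wider than in all Müller glia. Glul had 23.6 UMIs per cell there with rolipram, 28.6 with BC11-38, 0.788 in bleached vehicle and 6.97 in unbleached vehicle. Spc25 had 15.1, 14.3, 0.615 and 4.16 in the same order. These cluster 13 values rest on 21, 12, 179 and 38 cells.

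**Figure D4:**
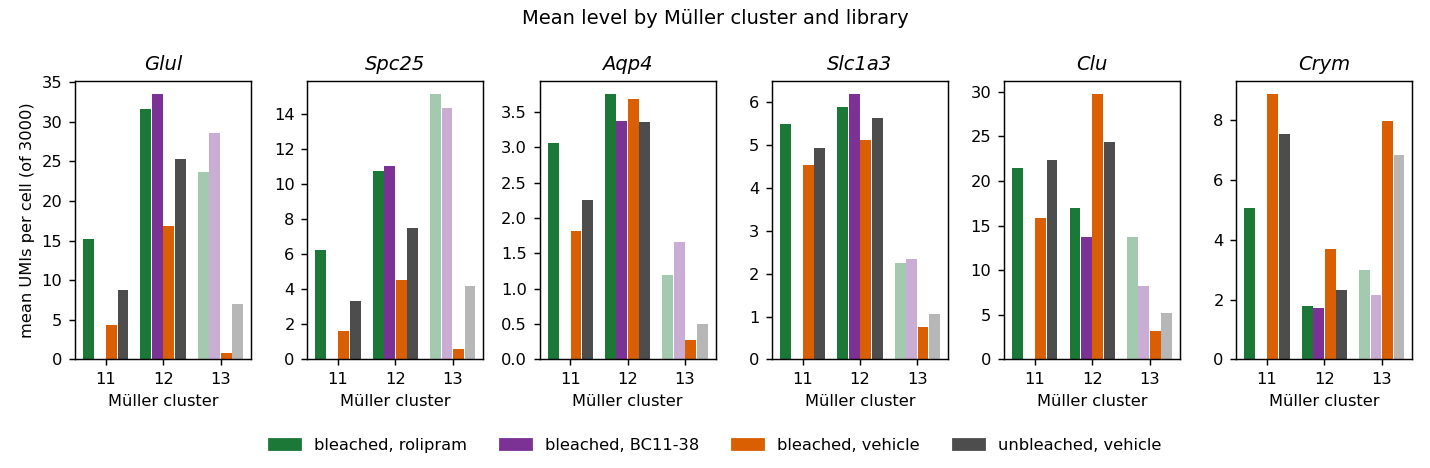
Mean UMIs per Müller cell thinned to 3000 UMIs for 6 genes in Müller clusters 11, 12 and 13, by library; faint bars rest on fewer than 50 cells, and libraries with fewer than 10 cells in a cluster are left out. Among the libraries shown, Glul keeps the same order in clusters 11 and 12. Clu in bleached vehicle is below unbleached vehicle in cluster 11 (15.9 and 22.3) and above it in cluster 12 (29.7 and 24.3).

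Among single cells, Glul and Spc25 UMIs varied together most in the vehicle libraries, with a Spearman rho of 0.34 over 1032 rolipram, 0.12 over 548 BC11-38, 0.44 over 1231 bleached vehicle and 0.60 over 519 unbleached cells. Glul and Crym ran opposite in rolipram, bleached vehicle and unbleached vehicle cells, at -0.31, -0.19 and -0.62, and not in BC11-38 cells, at -0.01. For Apoe and Clu rho was -0.01 with rolipram, 0.22 with BC11-38, 0.73 in bleached vehicle and 0.28 in unbleached vehicle. These are descriptions over cells of the same library after thinning, which did not remove all relation to the depth before it. Glul spread more between cells in the vehicle libraries, the variance of its UMIs being 4.87 times the mean with rolipram, 2.60 times with BC11-38, 9.01 times in bleached vehicle and 9.34 times in unbleached vehicle.

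Gfap, the marker of reactive Müller glia and of astrocytes, moved with the libraries too, with a UMI in 126 of 1032 rolipram, 3 of 548 BC11-38, 659 of 1231 bleached vehicle and 187 of 519 unbleached cells. In the unbleached library Glul had 9.78 UMIs in cells with Gfap and 17.8 in cells without. In the bleached vehicle library the values were 4.56 with Gfap and 4.40 without, so Glul there was about as low in cells where no Gfap UMI was drawn. At this depth such a cell may still hold Gfap, and whether it was reactive was not tested. Of the 8 astrocyte markers, 6 had UMIs in each library, with a summed level of 1.09, 0.602, 3.79 and 2.01 UMIs per cell in the rolipram, BC11-38, bleached vehicle and unbleached libraries, and Pax2, which defines retinal astrocytes, was at 0 in all 4. Rod markers had UMIs for 9 of 9 in every library and summed to 4.94, 4.65, 2.63 and 3.08 UMIs per cell, and amacrine markers, 8 or 9 of 9, to 2.16, 4.13, 1.42 and 2.12. Endothelial markers, 4 or 5 of 7, summed to 4.37, 4.91, 3.604 and 3.84, with Cdh5 at 0 in all 4. An endothelial marker UMI was seen in 96.4%, 98.4%, 88.1% and 92.9% of Müller glia in the same order. Which markers carry the endothelial and amacrine sums is not given here. Retinal pigment epithelium markers, 4 to 6 of 6, summed to 7.60, 9.56, 3.26 and 4.56, of which Rlbp1, also a Müller marker, gave 7.54, 9.49, 3.23 and 4.54, and Rpe65 was at 0 in all but the rolipram library. In an alternative that subtracted the level in rods, no count of the 10 genes moved by over 1.5 times. Their part in the ratios was not tested otherwise. A cluster of 60 cells with Müller and astrocyte markers was set aside: Apoe reached 27.1 to 49.4 UMIs per cell there and Slc1a3 at most 4.76, while Spc25 was at or below 0.18, Crym at or below 0.19 and Aqp4 at or below 0.31.

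All 10 genes had their highest level in Müller glia among the classes with at least 50 cells in every library, in each of the 4 libraries. Levels by class are as CPM (UMIs scaled to the total of the class) without thinning. Glul in Müller glia ranged from 1187 to 11101 CPM over the libraries, endothelial cells came next at 457 to 644, and amacrine, bipolar, rod bipolar, rod and cone levels lay between 40.0 and 218 with neighbouring classes mostly overlapping. Slc1a3 ranged from 1392 to 1975 CPM in Müller glia and from 25.7 to 30.5 in amacrine cells, the next class. Clu, at 4283 to 6851 CPM in Müller glia, was next highest in cones (227 to 552), and the ranges of cones and bipolar cells (83.7 to 353) overlapped. By the median of libraries, Crym outside Müller glia was highest in rods (4.68 to 73.8), and Spc25 likewise (9.74 to 32.9). These ranges overlapped those of the next class, amacrine cells for Crym (2.60 to 24.5) and rod bipolar cells for Spc25 (2.92 to 12.8). The part of free Müller RNA in these levels was not tested.

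Small classes, which the ranking above leaves out, held some of the genes as well. In the few cells with retinal pigment epithelium markers (7, 4, 5 and 2 with rolipram, BC11-38, bleached vehicle and unbleached vehicle), Apoe stood at 9948 to 17313 CPM, Clu at 8205 to 11754 and Car14 at 1233 to 2316 over the libraries, and in microglia Apoe stood at 5015 CPM with rolipram (32 cells), 750 in bleached vehicle (38 cells) and 239.9 in unbleached vehicle (14 cells). Counts of cells are too small for ratios. The Clu range of the cells with pigment epithelium markers lay above that of Müller glia (4283 to 6851 CPM). The Apoe and Car14 ranges of these cells overlapped those of Müller glia (4874 to 14148 and 323 to 1443 CPM). Microglia markers in Müller glia summed to 0.066 to 0.108 UMIs per cell.

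**Figure D5:**
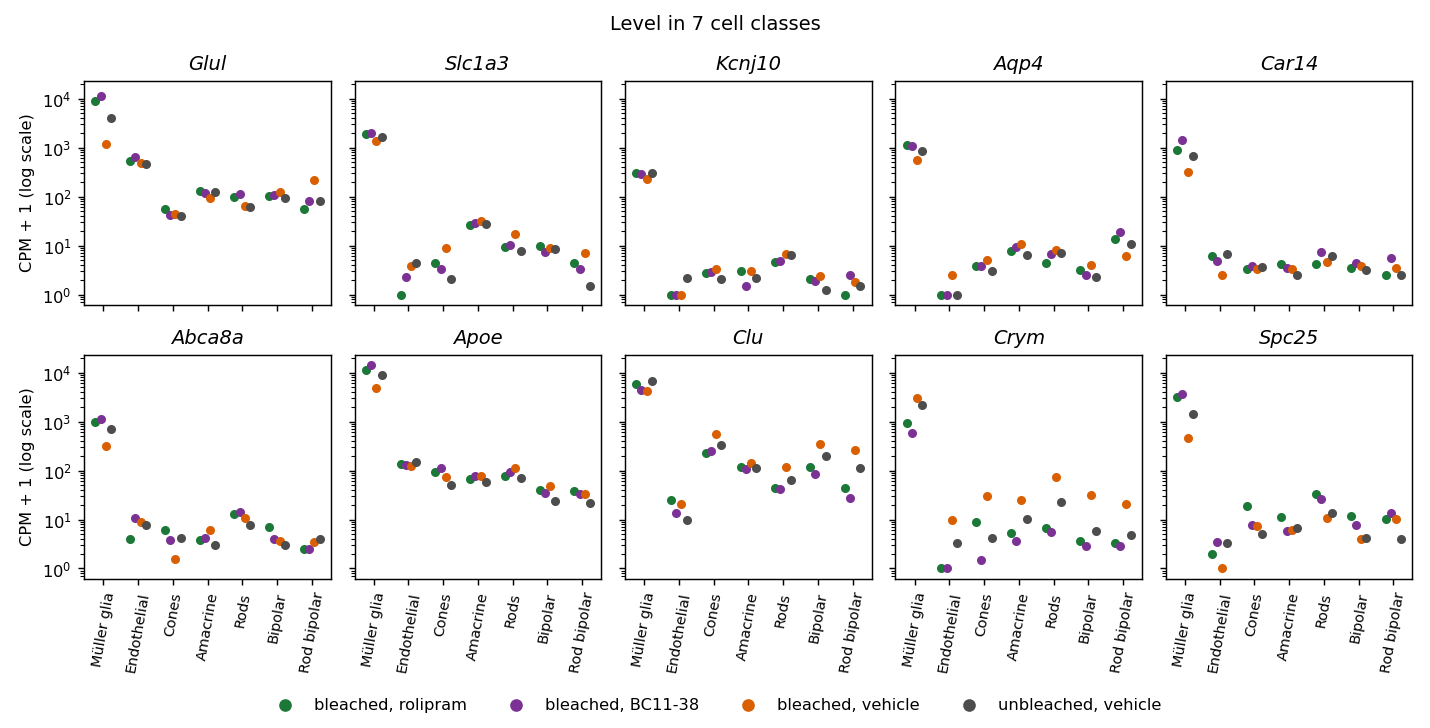
Level of each gene in 7 cell classes, as CPM plus 1 on a log axis, with 1 point per library. Every gene is highest in Müller glia in each library, and the Glul points in Müller glia span 11101 CPM with BC11-38 and 1187 in bleached vehicle while endothelial points stay within 457 to 644.

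Over the 28 combinations of 7 classes and 4 libraries, the genes whose log2(CPM + 1) followed each member most closely are given by name. For Glul they were Cyp2j6, Ly6g6d and Fgfrl1 (Pearson r 0.96 each), for Kcnj10 Bdh2, Sbspon and Gldc (0.98 each), and for Aqp4 Sbspon, Inhba and Gpr37 (0.95 each). For Clu they were Sdsl, Jtb and Rida (0.94, 0.93 and 0.91), and for Spc25 Hes5, Sbspon and Shisal2b (0.97 each). The points share libraries and classes, so these values describe likeness only.

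The other genes of glutamate and transmitter handling moved in both directions. Of 15 counted genes, 4 were higher and 3 lower with rolipram than in bleached vehicle, 4 and 4 with BC11-38, and 3 were higher and 4 lower in bleached vehicle than in unbleached vehicle. Of all genes counted, 21.9% were higher and 12.7% lower with rolipram, 23.7% and 16.2% with BC11-38, and 9.02% and 8.53% in bleached vehicle than in unbleached vehicle. Under TMM scaling the 15 genes gave 4 higher and 5 lower with either drug and 4 and 4 after bleaching. Of all genes counted, this scaling gave 14.9% higher and 18.5% lower with rolipram and 16.0% and 23.1% with BC11-38. After bleaching it gave 11.1% and 6.56%. Their median log2 ratios were -0.13, 0.04 and 0.12, and -0.30, -0.16 and 0.18 under TMM scaling, so the sign of the BC11-38 median rests on the scaling. Slc1a2, the glutamate transporter GLT-1, had 1.33 UMIs per cell with rolipram, 1.62 with BC11-38, 0.386 in bleached vehicle and 0.726 in unbleached vehicle. The GABA transporter gene Slc6a11 (1.25, 1.15, 0.518 and 0.827) and the glutamine exporter gene Slc38a3 (0.799, 0.812, 0.396 and 0.497) had the same order against bleached vehicle. Slc7a11, the cystine-glutamate exchanger, ran the other way at 0.0804, 0.0547, 0.183 and 0.0578, 3.16-fold higher in bleached vehicle than in unbleached vehicle, and so did the amino acid transporter gene Slc7a5 at 0.0407, 0.0529, 0.159 and 0.0578. Neurons also hold Slc1a2, which stood at 126 to 566 CPM in Müller glia and 1221 to 1438 in cones, and the part of free neuronal RNA was not tested for it.

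Potassium and water genes past 1.5-fold were all higher in the drug libraries than in bleached vehicle, where 21.9% (rolipram) and 23.7% (BC11-38) of all genes counted were higher. Under TMM scaling 14.9% of all genes counted were higher and 18.5% lower with rolipram, and 16.0% and 23.1% with BC11-38. In bleached vehicle against unbleached vehicle, 9.02% of all genes counted were higher and 8.53% lower, or 11.1% and 6.56% under TMM scaling. Of 9 counted potassium genes, 6 were higher and 0 lower with rolipram and 5 and 0 with BC11-38 than in bleached vehicle, and 0 were higher and 4 lower in bleached vehicle than in unbleached vehicle. Under TMM scaling these counts were 4 and 0, 3 and 1, and 0 and 3, with medians of 0.55, 0.45 and -0.31. Fxyd1, a regulator of the sodium pump, had 4.32 UMIs per cell with rolipram, 3.74 with BC11-38, 2.20 in bleached vehicle and 4.25 in unbleached vehicle, the bleached vehicle library being lowest. Of the water channel and anchor genes, 5 of 10 were higher with rolipram and 4 of 9 with BC11-38 than in bleached vehicle with 0 lower, and 0 of 10 were higher and 1 lower in bleached vehicle than in unbleached vehicle. Under TMM scaling 2 and 4 were higher with the drugs, and the medians were 0.42 with rolipram and 0.12 with BC11-38. Dmd, whose Dp71 product anchors Aqp4 and Kcnj10 in Müller membranes, had 0.277, 0.283, 0.113 and 0.162 UMIs per cell, and Mlc1, a membrane protein of glial endfeet, 1.22, 1.37, 0.772 and 1.22. Dmd was 1.43-fold lower in bleached vehicle than in unbleached vehicle, short of 1.5-fold, and Mlc1 1.59-fold lower.

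Lactate, lipid and thyroid hormone genes past 1.5-fold were also more often higher than lower against bleached vehicle, as were all genes counted (21.9% and 12.7% with rolipram, 23.7% and 16.2% with BC11-38). In bleached vehicle against unbleached vehicle, 9.02% of all genes counted were higher and 8.53% lower, or 11.1% and 6.56% under TMM scaling. Of acid-base and lactate genes, 2 of 6 were higher with rolipram and 3 of 5 with BC11-38 than in bleached vehicle, with 0 and 1 lower, and 1 of 5 was higher and 2 lower in bleached vehicle than in unbleached vehicle. Under TMM scaling 2 were higher and 0 lower with rolipram, 2 and 1 with BC11-38, and 1 and 2 after bleaching. The lactate transporter gene Slc16a1 had 0.606, 0.865, 0.217 and 0.362 UMIs per cell and its chaperone gene Bsg 5.91, 7.38, 3.29 and 5.29, in the order rolipram, BC11-38, bleached vehicle and unbleached vehicle. Of lipid transport genes, 6 of 12 were higher and 2 lower with rolipram, 4 of 10 and 2 with BC11-38, and 0 of 10 higher and 1 lower after bleaching. Under TMM scaling the lipid counts were 2 higher and 2 lower of 12 with rolipram, where 14.9% and 18.5% of all genes were, and 3 and 2 of 10 with BC11-38, beside 16.0% and 23.1%. Abca8b, the neighbouring relative of Abca8a, had 0.738, 0.690, 0.260 and 0.514 UMIs per cell, and how reads shared between such relatives were counted is not given in the sources used here. Of thyroid hormone genes, 5 of 7 were higher and 0 lower in either drug library than in bleached vehicle, and 0 of 5 higher and 2 lower in bleached vehicle than in unbleached vehicle. Under TMM scaling these counts were 4 and 0 with rolipram, 5 and 0 with BC11-38, and 0 and 1 after bleaching. Dio2, the deiodinase that makes the active hormone, had 0.547 with rolipram, 2.03 with BC11-38, 0.233 in bleached vehicle and 0.732 in unbleached vehicle, and the thyroxine transporter gene Slco1c1 0.112, 0.279, 0.0179 and 0.0713. Crym, the hormone-binding gene among the 10, was highest in bleached vehicle, where both were lowest.

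Genes that accompany Spc25 in dividing cells were mostly too low to be counted. Of the 11 kinetochore and cell division genes listed, among them its complex partners Ndc80, Nuf2 and Spc24 and the division markers Mki67 and Top2a, Pcna alone reached 100 UMIs over 2 libraries. Pcna, which also serves DNA repair, had 0.215 UMIs per cell with rolipram, 0.221 with BC11-38, 0.414 in bleached vehicle and 0.285 in unbleached vehicle, highest in bleached vehicle, where Spc25 was lowest. Spc25 had a UMI in 98.0% of rolipram, 99.3% of BC11-38, 60.0% of bleached vehicle and 89.2% of unbleached Müller glia, against 6.67%, 5.32%, 3.01% and 2.85% of rods thinned alike.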

How the data were processed

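Per the file headers, the deposited matrix is the data slot of a Seurat RNA assay, and its values are on a natural log scale, ln(1 + UMIs per 10000). The submitters' processing notes name Cell Ranger 6.0.1, Seurat 3.2.2 and mm10 without roles. The authors' filters, strand use and treatment of intronic reads are not stated there. Back-transformed values were whole multiples of each cell's smallest value (100% within 0.001), which gave back 140410160 UMIs in 26543 cells. The design had assumed counts, and the recovered UMIs took their place.

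Scrublet marked 18, 0, 2 and 1 cells of the rolipram, BC11-38, bleached vehicle and unbleached libraries as doublets (0.228%, 0%, 0.0294% and 0.0176%), against 6.32%, 4.91%, 5.45% and 4.56% expected. It did not work here, and most doublets remain. Scanpy 1.11.5 clustered the cells (2000 variable genes, 30 components, 15 neighbours, Leiden resolution 1). Clusters were named for the markers found, at least 3, each in 15% of the cells and 2-fold over the median of other clusters, and are "Müller-like" and so on in that sense. Clusters with more markers of another class among their 10 leading genes were set aside. Cells were thinned by drawing UMIs without replacement. Ratios have exact conditional Poisson intervals, shares Clopper-Pearson intervals, and log2 ratios a prior of 0.5 UMIs. Genes counted had 100 UMIs over both libraries, and a difference means 1.5-fold. The ratio step was tested on simulated data.

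Named genes were the 10 members, up to 3 genes of each pathway list with the largest ratios past 1.5-fold per direction and comparison, the 3 genes most like each of 5 members, and markers. Some genes this rule names are not reported here. The members, lists and alternatives were chosen with earlier results of these data known. The split by sex-linked transcripts within libraries and the run without cluster 13 were added later. Promoters are from RefSeq (GRCm38.p6).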

Additional observations from a re-analysis of the deposited data

How the results depend on the processing

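No ratio past 1.5-fold changed direction under the 18 alternatives. They were chosen with earlier results of these data known, and the run without cluster 13 was added later. Some could hardly turn a ratio, as Leiden resolution 0.5 gave the same number of Müller glia in each library as resolution 1. All 18 compare shares of the UMIs in a cell. UMIs per cell without depth matching did turn some: Aqp4 and Apoe with rolipram and Aqp4 and Slc1a3 with BC11-38 against bleached vehicle, and Abca8a and Apoe with BC11-38 against unbleached vehicle. A single library per group, pooled mice, uneven sex make-up and uneven depth limit every comparison. No paired analysis was possible because each group has 1 library, and for the same reason no replicate could be left out. The median log2 ratio over the 10 genes moved as follows, for bleached vehicle over unbleached vehicle, rolipram over bleached vehicle and BC11-38 over bleached vehicle. It was -0.84, 1.18 and 1.31 at 2000 UMIs, -0.65, 0.91 and 1.01 with TMM scaling, -0.82, 1.14 and 1.29 in the Müller glia with fewer rod marker UMIs, -0.97, 1.26 and 1.36 without cells holding 3 astrocyte markers, -0.92, 1.22 and 1.32 in cells with no Gfap UMI, and -0.61, 0.90 and 1.03 without cluster 13. At 5000 UMIs the drug medians were 0.92 and 1.08, and unthinned that of BC11-38 was 1.27. Among Y-linked cells the median was -0.56 for bleaching and 1.10 for BC11-38 over bleached vehicle. Against unbleached vehicle, the rolipram median was 0.19 at 5000 UMIs, 0.20 with TMM scaling, 0.43 in Y-linked cells, 0.22 without Gfap and 0.24 without cluster 13, and the BC11-38 median 0.37, 0.36 and 0.58 under the first 3 of these.

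Crym was the 1 higher gene after bleaching, and the count was 0 unthinned, with fewer rod marker UMIs, in Y-linked cells and at 2-fold, when 3 genes were lower. The count of genes higher with BC11-38 than in unbleached vehicle was 3 at 5000 UMIs, with TMM scaling, without astrocyte marker cells, without Gfap and without cluster 13, and 2 at 2-fold with 1 lower. Rolipram over unbleached vehicle gave 4 higher in Y-linked cells and 0 at 2-fold. Of all genes counted, 7.42% were higher with BC11-38 than in unbleached vehicle under TMM scaling, and 2.36% at 2-fold without it. At 2-fold, 1.49% of all were higher with rolipram. For Y-linked cells, 5000 UMIs and the runs that left out cells, shares of all genes are not given here. Those counts describe the listed genes only. Aqp4 after bleaching was under 1.5-fold in 5 settings, TMM scaling among them. The causes were not tested. Clu with BC11-38 against bleached vehicle turned to higher in 5 settings, none past 1.5-fold. Kcnj10 against unbleached vehicle turned in 3 settings with rolipram and 6 with BC11-38.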
